A study of Sus scrofa with 12 samples.

Results

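The ovaries of 12 sows were divided by their transcript level of RSAD2, the antiviral enzyme viperin, one of the genes that interferons switch on. An ovary was placed in the RSAD2-high set where the log2 value of the RSAD2 probe set outside the array controls was 6 or more, and in the RSAD2-low set where it was under 6. This put 6 of the 12 ovaries in each set. The sets were thus chosen by the measured RSAD2 level and are not groups of the study. RSAD2 itself is therefore described without a test, and each p-value given for another transcript measures how it went with the RSAD2 level on the same arrays. The interferon genes were already known to vary together in these sows when the sets were chosen, so their shared direction is not independent evidence.

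The study compared ovaries of sows of high and of low prolificacy, 6 animals in each group, placed there by their estimated breeding value (EBV). All sows came from an F2 cross of the Iberian and Meishan breeds and were slaughtered at day 30 of pregnancy. No treatment or genetic modification is named in the labels. Each sow was measured on 1 Affymetrix porcine array, and per the series' text both of its ovaries were averaged.

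Interferons are secreted proteins that cells release on sensing viruses or other danger signals. They bind receptors that act through the kinases JAK1, JAK2 and TYK2 on STAT and IRF transcription factors, which raise the transcription of a large set of antiviral genes. In pigs the elongating conceptus itself secretes interferons around implantation, and interferon-stimulated genes of the endometrium are known to respond to them. In the RefSeq annotation of the pig genome Sscrofa11.1, RSAD2 lies next to CMPK2, and IFIT2, IFIT3 and IFIT1 lie side by side.

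The RSAD2-high set held high 1 at 7.97, low 4 at 7.20, high 5 at 6.88, high 6 at 6.66, low 3 at 6.49 and high 2 at 6.03, where each sow is named by its prolificacy group and animal number and values are on the log2 scale. The RSAD2-low set held low 6 at 4.70, high 4 at 4.18, low 5 at 4.12, low 1 at 2.79, high 3 at 2.66 and low 2 at 2.58. High 2 was the nearest sow above the threshold and low 6 the nearest below it, and no sow lay between 4.70 and 6.03. The array carries a further RSAD2 probe set among its controls, which is not used in the tests. After an apparent displacement of control names was corrected, it read 3.97 to 6.19 in the RSAD2-high and 2.93 to 3.84 in the RSAD2-low ovaries. Of the RSAD2-high sows 4 were of high and 2 of low prolificacy, and the sets were not distinguishable from an even division over the groups (Fisher's exact test, two-sided p = 0.567).

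Transcripts of 3 interferon-stimulated genes rose with RSAD2: ISG15, IFIT1 and IFIT3. Of 13389 probe sets tested with limma and Benjamini-Hochberg adjustment, 4 passed an adjusted p of 0.05, which is 0.0299% of them. All 4 were higher in the RSAD2-high ovaries and belonged to these genes. No probe set passed in the lower direction, nor did any with trend and robust moderation or with array weights, although 789 probe sets had an unadjusted p under 0.05 (5.89%), 454 of them lower (3.39%) and 335 higher (2.5%). Without high 3, 1 probe set with no gene symbol passed in the lower direction, at a difference of -1.16. With no filter on dim probe sets, 0 passed in either direction. Over all probe sets tested the median log2 difference, RSAD2-high minus RSAD2-low, was -0.027, and 44.4% of probe sets were higher.

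ISG15 encodes a ubiquitin-like protein that is attached to other proteins during an antiviral response. Its log2 level ran from 6.45 to 7.88 in the RSAD2-high ovaries, with a median of 7.36, and from 3.19 to 4.97 in the RSAD2-low ovaries, with a median of 4.14. The sets thus lay more than 1 log2 unit apart, with high 5 at the top and high 3 at the bottom. The means were 7.24 ± 0.62 and 4.16 ± 0.67 (SD, n = 6 each), a difference of 3.08 (95% interval 2.35 to 3.82) or 8.47-fold, with a limma adjusted p of 0.0091. ISG15 passed with each of the 12 sows left out in turn, at differences from 2.89 to 3.24.

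IFIT1 and IFIT3 encode tetratricopeptide proteins that bind viral RNA. IFIT1 ran from 6.99 to 8.61 in the RSAD2-high ovaries, with a median of 7.78, and from 5.20 to 6.45 in the RSAD2-low ovaries, with a median of 5.83. The values did not overlap, and high 2 and low 6 were the nearest to each other, as they were for RSAD2. The difference was 2.02 (1.42 to 2.62), or 4.05-fold, with a limma adjusted p of 0.0375. A second IFIT1 probe set differed by 2.13 (limma adjusted p = 0.0422), while the dimmest differed by 0.57 and did not pass (limma adjusted p = 0.667). IFIT3 ran from 6.05 to 7.997 with a median of 7.27 in the RSAD2-high ovaries, against 4.49 to 5.87 with a median of 4.78. Its sets did not overlap either, and its difference of 2.19 (1.53 to 2.85), or 4.56-fold, had a limma adjusted p of 0.0375. Both genes kept their direction with any sow left out, at differences of 1.85 to 2.18 for IFIT1 and 2.02 to 2.41 for IFIT3. They passed only where the sow left out was high 2 or low 6. Without any of the other 10 sows neither passed, and the adjusted p reached 0.157.

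**Figure D1:**
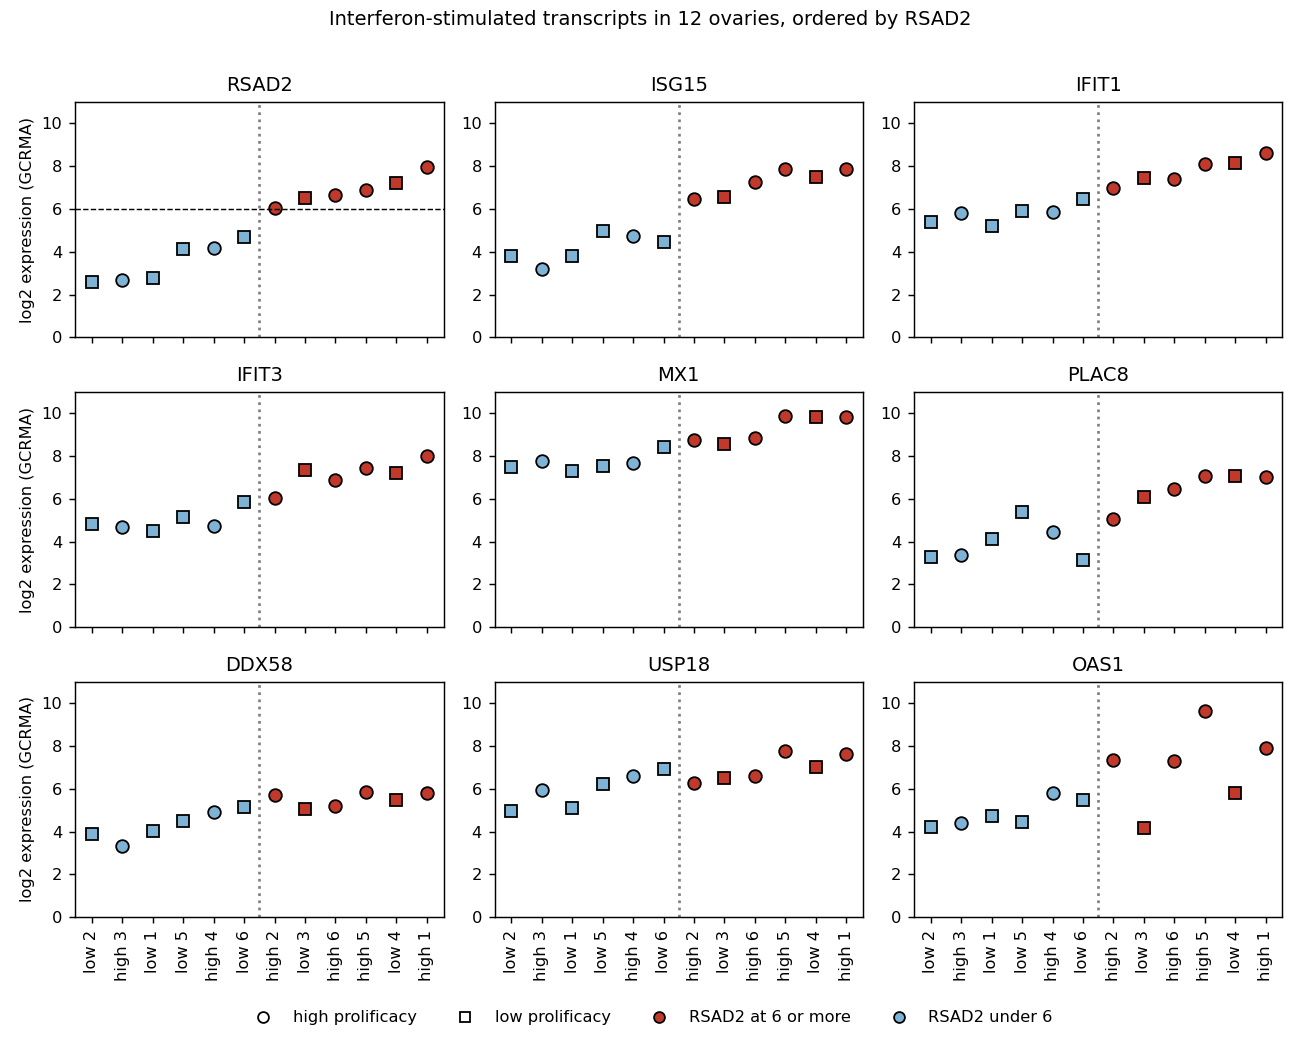
Log2 expression of RSAD2 and 8 interferon-stimulated genes in each of 12 ovaries, ordered along the horizontal axis by RSAD2; each point is 1 sow, circles are high and squares low prolificacy, red is RSAD2 at 6 or more (dashed line) and blue is under 6. The red and blue points do not overlap for ISG15, IFIT1, IFIT3 and MX1, while OAS1 is at 4.18 and 5.80 in the red squares and at 7.32 to 9.61 in the red circles.

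MX1, a GTPase that blocks virus replication, did not pass. It ran from 8.58 to 9.86 in the RSAD2-high ovaries, with a median of 9.32, and from 7.32 to 8.41 in the RSAD2-low ovaries, with a median of 7.60. The sets did not overlap, and low 6 again held the highest RSAD2-low value. The difference was 1.58 (0.99 to 2.16), or 2.98-fold (limma adjusted p = 0.141). PLAC8, a small cysteine-rich protein of immune and placental cells, ran from 5.05 to 7.09 against 3.14 to 5.38, with medians of 6.74 and 3.76. Its sets overlapped because low 5 lay above high 2. Its difference was 2.50 (1.56 to 3.44), with the same limma adjusted p of 0.141. With the RSAD2 level as a continuous covariate in place of the sets, 7 probe sets passed, and MX1, PLAC8 and DDX58 joined the 3 genes called above.

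The list of antiviral effectors held 54 genes, of which 29 were on the array with 1 symbol and 19 were bright enough to be tested, by reaching a log2 value of 4 in at least 6 sows. Of the 19 tested, 3 passed, all higher, where 0.0299% of all probe sets tested passed. For a list, each gene is read by its brightest probe set. In 17 of 19 the mean was higher in the RSAD2-high ovaries, and the median difference of the list was 0.73, against -0.027 over all probe sets tested. The sets did not overlap for 5 of the 19, namely ISG15, MX1, IFIT1, IFIT2 and IFIT3, all higher, where 0.164% of all probe sets tested were higher without overlap. ISG15 and PLAC8 were above 4 in 6 RSAD2-high and 3 RSAD2-low sows and SP110 in 6 and 5, so part of the list was kept with the help of the set where it was higher, and the counts over the 19 are a description. Over all 29 on the array, dim ones included, 27 were higher and the median was 0.56. The mean of the 19 log2 levels ran from 7.15 to 8.22 in the RSAD2-high and from 6.41 to 6.93 in the RSAD2-low ovaries.

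OAS1 is described below with the prolificacy groups. IFIT2, a relative of IFIT1, differed by 0.73 (0.34 to 1.11), GBP1, a guanylate-binding GTPase, by 0.76, and PLSCR1, a phospholipid scramblase, by 0.74. The ADP-ribosyltransferase family members PARP9 and PARP12 differed by 0.59 and 0.62. ISG12(A), a mitochondrial interferon-induced protein, differed by 0.83, IFI44L by 0.56 and the RNA-activated kinase EIF2AK2 by 0.38. Without high 5, ISG12(A) differed by 0.53 and EIF2AK2 by 0.23. SAMHD1, which degrades deoxynucleotides, differed by -0.026, SHISA5 by -0.037 in its brightest probe set, PNPT1 by 0.031 and GBP2 by 0.089. The other SHISA5 probe sets differed by -0.57 and -0.46 and did not pass. The limma adjusted p of these 12 genes, OAS1 apart and each in its brightest probe set, ran from 0.636 to 0.98. The 10 effectors that were on the array but too dim to be tested had means under 4 in both sets. Among these, XAF1, a promoter of cell death, averaged 3.82 against 2.75 and MX2, a relative of MX1, 3.64 against 2.87. Differences among such dim probe sets are compressed by the background correction.

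Sensors of viral nucleic acid and the transcription factors of the response gave no probe set past the threshold. Of 16 on the array 12 were tested, 11 of them higher in the RSAD2-high ovaries, with a median difference of 0.25. DDX58 was above 4 in 6 RSAD2-high and 4 RSAD2-low sows and IRF7 in 6 and 3. Both were thus kept with the help of the set where they were higher, and these counts are a description. DDX58, the RNA sensor RIG-I, ran from 5.05 to 5.83 with a median of 5.57 in the RSAD2-high ovaries and from 3.34 to 5.12 with a median of 4.27 in the RSAD2-low ovaries. The sets overlapped, since low 6 lay above low 3, and the difference was 1.21 (0.60 to 1.81, limma adjusted p = 0.628). IRF9 and STAT2, partners in the ISGF3 complex that binds interferon-stimulated promoters, differed by 0.52 and 0.33, and IRF9 by 0.33 without high 5. IRF7, which drives further interferon transcription, differed by 0.35 and lay near the level of 4 in both sets. IFI35, an interferon-induced leucine zipper protein, went the other way with a difference of -0.43. IFIH1 and CXCL10 were not analysed here, since no single-symbol probe set used here carried these names.

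Receptors and kinases of the pathway gave no probe set past the threshold. Of 10 ligand, receptor and kinase genes on the array 7 were tested, 5 of them higher, and the median difference was 0.16. IFNAR1 and IFNAR2, the chains of the type I interferon receptor, differed by 0.24 (-0.079 to 0.57) and -0.11 (-0.40 to 0.17). IFNGR1, a chain of the interferon gamma receptor, differed by -0.0067 (-0.26 to 0.24). JAK1 differed by 0.16 and TYK2 by 0.0037, while JAK2 differed by 0.69 (0.029 to 1.35) and by 0.54 in a second probe set (both with a limma adjusted p of 0.816). Without high 2 the first of these was 0.41. The ligand probe sets were dim in both sets, with IFNG at 1.98 and 1.97, IFNB1 at 2.10 and 2.09 and IFNA1 at 3.10 and 3.02, in the order RSAD2-high and RSAD2-low. These values lie near the floor of the array values and were not tested.

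Negative regulators of the pathway differed in both directions. Of 8 on the array 6 were tested, 4 of them higher, with a median difference of 0.15 and none past the threshold. USP18, the protease that removes ISG15 from proteins and damps receptor signalling, ran from 6.25 to 7.76 with a median of 6.79 in the RSAD2-high ovaries and from 4.95 to 6.92 with a median of 6.08 in the RSAD2-low ovaries. Low 6 lay above 3 of the RSAD2-high sows, so the sets overlapped, and the difference was 1.004 (0.20 to 1.81, limma adjusted p = 0.801). SOCS1, a feedback inhibitor of JAK kinases, averaged 4.36 ± 0.62 against 5.29 ± 0.35, a difference of -0.93 (-1.51 to -0.35, limma adjusted p = 0.72).

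Chemokines and genes that respond mainly to interferon gamma held 13 on the array, of which 8 were tested, 6 were higher and none passed, with a median difference of 0.29. Among the 8, CASP1 was above 4 in 6 RSAD2-high and 5 RSAD2-low sows. The cytokine IL18 differed by 0.72, the death ligand TNFSF10 by 0.67, the monocyte chemokine CCL2 by 0.75, or 0.39 without high 2, and the receptor CD40 by 0.46. The 2 lower members, WARS and LAP3, differed by -0.23 and -0.125. CXCL9, a chemokine for T cells, averaged 2.85 and 2.62 and was not tested, and CCL8 averaged 3.69 ± 1.61 and 2.32 ± 0.30. MHC class I and peptide loading genes, which present peptides to cytotoxic T cells, were all 15 tested, with 9 higher, none called and a median of 0.10, or 0.0012 without high 3. Among the 15, SLA-7 was above 4 in 4 RSAD2-high and 2 RSAD2-low sows. At an unadjusted limma p under 0.05, 1 of the 15 was higher and 2 were lower. The transporter TAP1 differed by 0.086, beta-2-microglobulin, B2M, by -0.10 in its brightest probe set and the class I gene SLA-2 by 0.10. Among the 6 lower members, CALR differed by -0.35 (-0.69 to -0.015, limma adjusted p = 0.816), PDIA3 by -0.27 and TAPBP by -0.27. The other B2M probe sets tested differed in both directions, from -0.69 to 0.092, and none passed. The class I gene SLA-8 differed by 1.21 (0.098 to 2.32, limma adjusted p = 0.816), and by 0.77 without high 3. It shares sequence with other SLA genes, so its probe set may read more than 1 of them.

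The 5 leading interferon genes were higher in the RSAD2-high sows within both prolificacy groups. For ISG15, IFIT1, IFIT3 and MX1 the sets did not overlap over all sows, so this direction was fixed in advance and only the sizes are informative. In high prolificacy sows, 4 RSAD2-high against 2 RSAD2-low, ISG15 differed by 3.40, IFIT1 by 1.95, IFIT3 by 2.38, MX1 by 1.60 and PLAC8 by 2.48. In low prolificacy sows, 2 against 4, the differences were 2.76, 2.06, 2.19, 1.505 and 2.59. Of the 19 antiviral effectors tested, 15 were higher in the RSAD2-high sows within both groups, where 20.6% of all probe sets tested were. The 15 include the effectors whose sets did not overlap, for which this was fixed in advance. With either group alone 0 probe sets passed in limma. With prolificacy as a covariate 1 passed (0.00747%), which was ISG15, at a difference of 3.08 (limma adjusted p = 0.0483).

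The interaction of set and prolificacy was tested for every probe set, and 0 passed in limma, while 326 had an unadjusted p under 0.05 (2.43%). Without high 4, 1 probe set with no gene symbol passed. OAS1, which makes the second messenger that activates RNase L, is described across the groups because of its values, so this pattern was chosen after they were seen. Among the RSAD2-high ovaries it stood at 7.91 in high 1, 9.61 in high 5, 7.32 in high 6 and 7.33 in high 2, but at 5.80 in low 4 and 4.18 in low 3. Among the RSAD2-low ovaries it ran from 4.21 to 5.79, with a median of 4.58. Low 3 thus lay under the lowest RSAD2-low value, and low 4 just above the highest. OAS1 differed by 2.96 between the sets in high prolificacy sows and by 0.28 in low prolificacy sows, with an unadjusted interaction p of 0.0205 that became 0.98 after limma's adjustment. Over all sows its difference was 2.19 (0.63 to 3.74, limma adjusted p = 0.782).

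**Figure D2:**
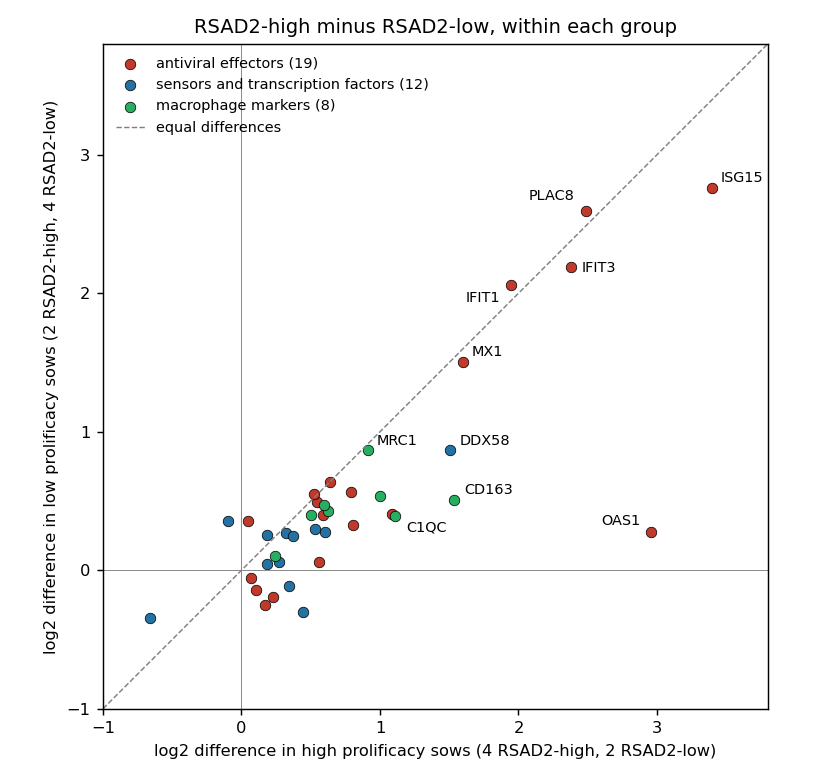
Log2 difference between RSAD2-high and RSAD2-low ovaries within high prolificacy sows (horizontal axis) and within low prolificacy sows (vertical axis); each point is 1 gene of 3 lists, read by its brightest probe set, and the dashed line marks equal differences. ISG15, IFIT1, IFIT3, MX1 and PLAC8 lie near the dashed line, and OAS1 lies far to its right at 2.96 and 0.28.

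The ovaries near the threshold were intermediate in part of the genes. Low 6, with the highest RSAD2 of the RSAD2-low set, also held the highest value of that set for IFIT1 (6.45), IFIT3 (5.87), MX1 (8.41), DDX58 (5.12) and USP18 (6.92). For ISG15 it ranked below low 5 and high 4, at 4.46, and for PLAC8 it was the lowest of all sows at 3.14. High 2, with the lowest RSAD2 of the RSAD2-high set, was the lowest of that set for ISG15 (6.45), IFIT1 (6.99), IFIT3 (6.05), PLAC8 (5.05) and USP18 (6.25), but not for MX1 (8.76) or DDX58 (5.68).

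No marker of macrophages passed the threshold. Of 11 on the array 8 were tested, and all 8 were higher in the RSAD2-high ovaries and higher within both prolificacy groups, with a median difference of 0.60. Their mean log2 level ran from 7.26 to 7.70 in the RSAD2-high and from 6.42 to 7.44 in the RSAD2-low ovaries, so the sets overlapped. MRC1, the mannose receptor, differed by 0.90 (0.45 to 1.34, limma adjusted p = 0.628), CD163, the haemoglobin scavenger receptor, by 1.09, and the complement subunits C1QA and C1QC by 0.78 and 0.74, and C1QA by 0.48 without low 6. TYROBP, an adaptor of myeloid receptors, differed by 0.46. MARCO, FCGR1A and ITGAM stood at the floor, from 2.18 to 2.26 on average in both sets. The part of these cells in the differences of the interferon genes was not tested, and in bulk tissue more cells of a type and more RNA per cell cannot be told apart.

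MHC class II genes, which macrophages and other antigen-presenting cells use to show peptides to helper T cells, were higher in 7 of 8 tested, with a median of 0.45 and none past the threshold. SLA-DQB1 differed by 0.62, SLA-DQA1 by 0.58, SLA-DRA by 0.47 and the protease CTSS by 0.47, while the peptide exchange subunit SLA-DMA differed by -0.39. Of 12 T and NK cell markers 1 was tested, CD247, at 4.38 and 4.42, and the others lay under 4 in both sets, CD3D, CD3E and CD3G near 2. Of 5 granulocyte markers none was tested. Of 9 endothelial markers 8 were tested and 6 were higher, with a median of 0.083. Without high 5, 4 of the 8 were higher with a median of -0.032, and without high 3, 4 of the 8 with 0.0013. Among the 8, FLT1 was above 4 in 6 RSAD2-high and 5 RSAD2-low sows. Among B and plasma cell markers BLNK differed by 0.67 and JCHAIN by 0.24. Among plasmacytoid and dendritic markers IRF8 differed by 0.34 and CD83 by -0.0031.

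**Figure D3:**
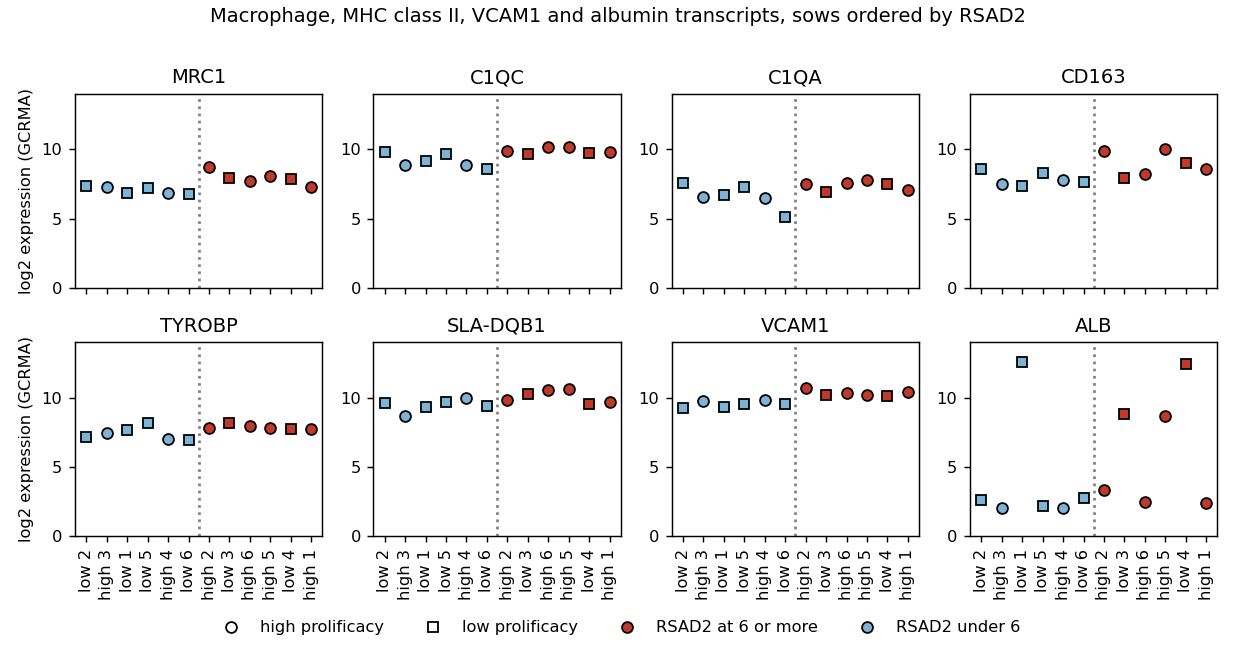
Log2 expression of 5 macrophage markers, the MHC class II gene SLA-DQB1, VCAM1 and albumin (ALB) in each of 12 ovaries, ordered by RSAD2; circles are high and squares low prolificacy, red is RSAD2 at 6 or more and blue is under 6. VCAM1 is the only gene of the 8 whose red and blue points do not overlap, and albumin is above 8 in 3 red and 1 blue sow.

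Apart from the interferon genes, VCAM1, the adhesion molecule by which leukocytes attach to activated endothelium, had the smallest p. It ran from 10.11 to 10.72 with a median of 10.27 in the RSAD2-high ovaries and from 9.28 to 9.83 with a median of 9.57 in the RSAD2-low ovaries. The sets did not overlap, and the difference was 0.78 (0.49 to 1.07, limma adjusted p = 0.141). In all, the sets did not overlap in 50 probe sets (0.373%), 22 higher and 28 lower (0.209%) in the RSAD2-high ovaries. Of the 22 higher, 13 had a symbol and stood for 10 genes. Beside those already named these included RARRES2, the chemoattractant chemerin, with a difference of 0.61, and FAM26F, with 0.87, both named after their values were seen. FAM26F ran from 4.15 to 5.02 in the RSAD2-high and from 3.16 to 4.12 in the RSAD2-low ovaries. Only low 5 of the RSAD2-low sows was above 4, so FAM26F was kept with the help of the set where it was higher. DDX39B, an RNA helicase, also chosen after its values were seen, differed by 2.69 in a probe set that ran from 6.86 to 8.80 and from 3.45 to 7.27, but by -0.21 in its brighter probe set.

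Among transcripts lower in the RSAD2-high ovaries none passed, and the 5 with a symbol and the smallest p are given as values. PAQR8, a membrane progestin receptor, averaged 5.14 ± 0.22 against 5.78 ± 0.25, a difference of -0.64 without overlap between the sets. OGFOD1, a prolyl hydroxylase of a ribosomal protein, differed by -0.96, and by -0.49 and -0.70 in its other probe sets. PM20D2 differed by -0.71, C14H1orf198 by -0.54, and by -0.089 in its brighter probe set, and ARMC6 by -0.38. Their limma adjusted p ran from 0.566 to 0.688. Over all probe sets the 95% interval extended 0.35 above and below a difference at the median, and the number of sows sets this precision.

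**Figure D4:**
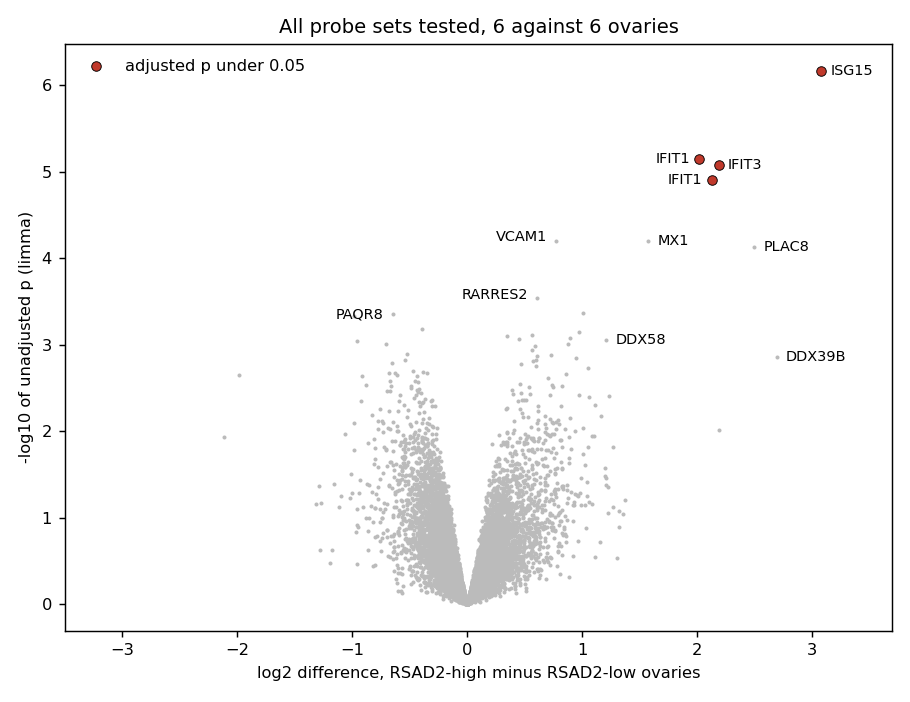
Log2 difference between RSAD2-high and RSAD2-low ovaries (horizontal axis) and -log10 of the unadjusted limma p (vertical axis) for each of 13389 probe sets; red points passed an adjusted p of 0.05. The 4 red points are ISG15, IFIT1 in 2 probe sets and IFIT3, followed by VCAM1, MX1 and PLAC8.

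Ovarian transcripts gave no probe set past the threshold. The luteal steroidogenesis list held genes of progesterone synthesis together with receptors, cholesterol transport genes and relaxin. Its 12 tested members had a median of -0.052, with 4 higher and none called. STAR, which brings cholesterol into mitochondria, differed by -0.0015 (-0.28 to 0.28), CYP11A1 by -0.036 and HSD3B1 by 0.11. Of 7 granulosa and growing follicle genes 2 were higher, with a median of -0.25, or -0.027 without low 6. NR5A2, a nuclear receptor that drives steroid synthesis, averaged 11.09 against 11.79, a difference of -0.70 (-1.12 to -0.28, limma adjusted p = 0.713). INHA, the inhibin alpha subunit, differed by 0.16 with a wide interval of -2.40 to 2.72, and by -0.73 without high 4. The 11 cell cycle genes tested were all lower in mean, with a median of -0.27 and none with an unadjusted p under 0.05. Without high 3, 8 of the 11 were higher and the median was 0.027. CDC20, which activates the anaphase-promoting complex, differed by -0.65, and by -0.13 without high 3. Stroma and smooth muscle genes were higher in 8 of 8, with a median of 0.15, but in 4 of 8 without high 4. Of 3 red cell markers on the array 2 were tested, 1 higher and 1 lower. ALAS2, of haem synthesis, averaged 5.12 ± 0.78 against 6.28 ± 1.14 (limma adjusted p = 0.816). The brighter HBB, a haemoglobin chain, averaged 9.57 against 9.53, a difference of 0.031.

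**Figure D5:**
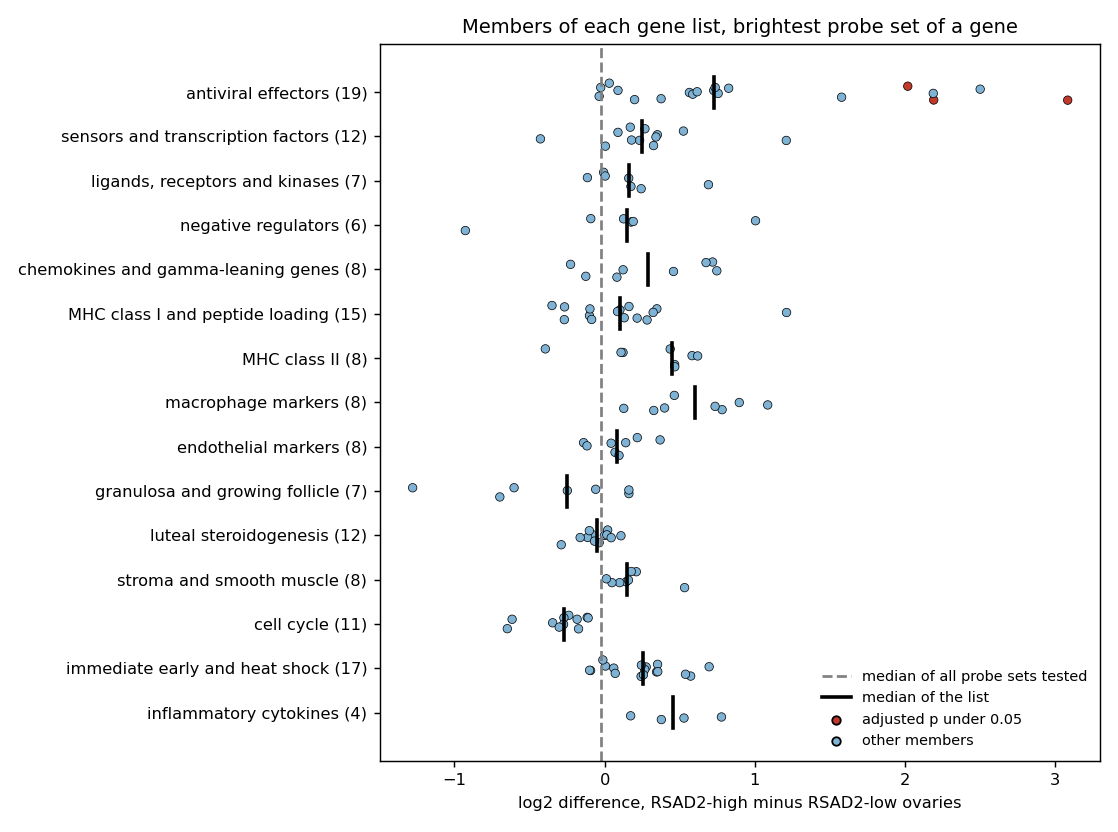
Log2 difference between RSAD2-high and RSAD2-low ovaries for the tested members of 15 gene lists, 1 point a gene; the number of genes stands beside each list, black bars are list medians, the dashed line is the median of all probe sets tested and red points passed an adjusted p of 0.05. The antiviral effectors reach from -0.037 to 3.08 with a median of 0.73, and the luteal genes lie close to 0.

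For signs of RNA quality and array level, all 924 assignments of the sows were enumerated in an exact permutation test, two-sided, whose smallest p is 0.00216. The actin 3' minus 5' difference, which grows as RNA breaks down, was 2.45 ± 0.44 in the RSAD2-high and 2.27 ± 0.37 in the RSAD2-low ovaries (exact p = 0.483). The mean of the spike controls differed by 0.13 (exact p = 0.0519, adjusted p = 0.364 over 7 controls). Genes of the immediate early and heat shock response, which tissue handling can induce, were higher in 14 of 17 with a median of 0.26 and none called, and the median was 0.048 without high 2. Albumin, a liver transcript, stood above 8 in low 4, high 5 and low 3 of the RSAD2-high set and in low 1 of the RSAD2-low set, and at 3.33 or less in the others. Of the other hepatocyte markers on the array, APOC3 and FGB were also above 6 in exactly these sows. FGG was above 4 in 3 RSAD2-high sows and 1 RSAD2-low sow. The rest of the list differed from albumin. APOA2, TTR, AMBP, SERPINA1 and AHSG were above 4 in 1 sow of each set, TF in 4 of each and APOA1 in 6 of each. Without these 4 sows ISG15 differed by 2.94 and IFIT1 by 1.79, but no probe set passed with 3 against 5 sows. With albumin as a covariate 1 passed, which was ISG15. The part of the albumin-positive tissue in the interferon differences was not tested.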

How the data were processed

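The deposited values are log2 expression values per probe set, made by the authors with GCOS and GCRMA per the submitters' processing notes. No version or setting of either is given in the sources used here. GCRMA draws dim probe sets toward a floor near 2, where differences are compressed. Depth has no meaning for arrays, and the number of sows limits the precision. The 24123 probe sets include 124 array controls, left out of the tests with RSAD2. Among 62 porcine controls the deposited names appeared displaced by 21 places and were moved back, which brought the mean gap between spike control sets from 4.83 to 0.436. Gene symbols came from the array annotation, where 10099 probe sets had 1 symbol, 198 several and 13826 none, and only single symbols were used.

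Probe sets above 4 in at least 6 sows were tested in R 4.3.3 by the moderated test of limma 3.58.1 (lmFit, then eBayes), two-sided, with Benjamini-Hochberg adjustment over all 13389 and no covariate. The sows are separate animals, and the labels name no batch. A rule for naming genes took the called genes, the 5 lowest by p, all antiviral effectors and a fixed set of pathway genes. It also took up to 3 members of each cell or tissue list by p. Not all of these are described above. Other list members, such as STAR, CYP11A1, HSD3B1, SOCS1, JAK2 and IL18, were named outside this rule. Genes outside the lists that were chosen after their values were seen are marked. Members, sets and lists were chosen with earlier results of these data known. The steps were tested on simulated data. Alternatives were other filters, scalings, covariates, splits, a replicate block, other limma settings and leaving out sows.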

Additional observations from a re-analysis of the deposited data

Results flagged for a closer look

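In 148 sets of 6 sows, 2 for each of 74 named probe sets, the highest or lowest sow was compared with the others by Dixon's rule, which chance meets in about 5% of sets. It was met in 16, or 10.8%. Probe sets share sows, so these are not independent.

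Among the interferon genes, the receptor chain IFNAR1 stood at 8.65 in high 3, above its RSAD2-low set, and IFNGR1 at 9.55 in high 5, above its RSAD2-high set. SAMHD1 stood at 10.44 in high 6 and SP110, a nuclear body protein, at 3.93 in low 2, the lowest of its set. The peptide loading chaperone PDIA3 was lowest in high 1, at 11.69. IRF8 was lowest among RSAD2-low ovaries in low 6, at 4.56. The T cell receptor chain CD247 stood at 4.31 in low 3 and at 4.55 in high 4, a narrow range just above the filter level of 4.

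Endothelial markers were set apart in several sows. PECAM1 was lowest in high 3 at 8.70, CDH5 highest in high 5 at 9.82 and VWF highest in high 4 at 10.36. PDGFRB, a pericyte receptor, was highest in high 5 at 11.92, and HBB, a haemoglobin chain, lowest in high 4 at 8.86. The relaxin gene RLN2 was lowest in high 3 at 14.92 and the oocyte factor GDF9 highest there at 5.46. The chaperone HSPH1 was lowest in low 6 at 9.52.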

How the results depend on the processing

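With 4 probe sets called under the settings used, quantile normalization, median centring, a filter at 6, the 3' difference as a covariate and trend and robust moderation also gave 4, and a filter in all 12 sows gave 3, IFIT1 in 2 probe sets and IFIT3, since ISG15, not above 4 in 3 RSAD2-low sows, was then not tested. No filter gave 0, prolificacy as a covariate 1, albumin as a covariate 1, high prolificacy sows alone 0, low prolificacy sows alone 0, a split at 7, with 2 against 10 sows, 0, RSAD2 as a continuous covariate 7 and array weights 6. The cause of these differing counts was not tested. A split at 5 moves no sow. Leaving out 1 sow gave 1 to 5 calls. Of alternatives added after seeing the data, leaving out high 2 and high 3 gave 5, leaving out the 4 sows with albumin above 8 gave 0 and the RSAD2 control probe set as a continuous covariate gave 6. ISG15 differed by 2.89 to 3.24 with 1 sow left out. The interaction gave 0 to 1 calls with 1 sow left out, the call coming without high 4 (2.68 on the log2 scale, limma adjusted p = 0.0182). The spike control difference ran from 0.106 to 0.168 with 1 sow left out. Of the 74 probe sets followed through each alternative, 26 turned in sign in at least 1 alternative, 8 of them with a sow left out; none of these had been called.

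With the animal number as a replicate block 2 probe sets passed, ISG15 and PLAC8. Deviations of same-numbered sows correlated from -0.455 to 0.168. This gave no clear sign that the numbers pair the sows, but so few correlations cannot exclude a pairing.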
